A study of Mus musculus with 11 samples.

Results

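Heart RNA of mice lacking the receptor MERTK was set against heart RNA of mice lacking both liver X receptors. The comparison takes the 2 libraries labelled Mertk-KO against the 3 labelled LXR-DKO, which are 5 of the 11 libraries of the study, and it covers 13884 genes. All hearts came from male mice aged 8 to 12 weeks. Mertk-KO (n = 2) is labelled as deficient for Mertk, and LXR-DKO (n = 3) as deficient for the alpha and beta forms of the liver X receptor, encoded by Nr1h3 and Nr1h2. The other groups give context only. Macrophage-depleted hearts (n = 3) were from CD169-DTR mice, in which the diphtheria toxin receptor is driven by the CD169 locus (the gene Siglec1), given toxin at 0.01 µg per g of body weight over 3 weeks, with the depletion lasting 21 days. The wild-type controls, WT (n = 3), were given toxin in the same way. Whether Mertk-KO or LXR-DKO mice received toxin is not stated, and neither are the alleles, the strain background, the breeding of the lines or whether each library is a separate mouse. The p-values therefore reflect no more than how far these libraries vary, part of which may be technical, and a difference of genotype cannot be told apart from a difference of background or handling.

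MERTK is a receptor tyrosine kinase of the TAM family (with TYRO3 and AXL) by which macrophages recognise and engulf dying cells and, in the heart, material shed by cardiomyocytes. The liver X receptors are nuclear receptors that bind oxidised cholesterol, pair with retinoid X receptors and switch on genes of cholesterol export and fatty acid synthesis. In macrophages Mertk is itself a known liver X receptor target, so the receptors are often studied in 1 pathway of clearance of dead cells.

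The libraries held between 11794185 and 16534157 estimated reads in the 5 hearts compared. The measurement is a normalised count: estimated reads scaled to a common library size, with a group difference given as a log2 fold change of Mertk-KO over LXR-DKO on the log2(normalised count + 1) scale. That scale understates changes of low genes. A gene was called when the adjusted p of limma's moderated test (Benjamini-Hochberg over all 13884 genes) was below 0.05. The Mertk-KO libraries stood apart from each other: their log values correlated at 0.959, whereas the 3 pairs of LXR-DKO libraries correlated at 0.976 to 0.983. Pairs of a Mertk-KO and an LXR-DKO library correlated at 0.957 to 0.965. The Mertk-KO libraries were thus no more alike than they were to LXR-DKO libraries. Values by library are therefore given for the main gene groups below. Heart muscle genes were abundant in all 5 libraries, with Myh6, the adult ventricular myosin heavy chain, at 428147 and 314263 normalised counts in Mertk-KO and 398023, 380212 and 416404 in LXR-DKO.

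The targeted genes were examined first. Nr1h2, which encodes liver X receptor beta, had 688 and 621 normalised counts in Mertk-KO, against 85.2, 91.7 and 99.6 in LXR-DKO and 543, 525 and 525 in WT. The groups were far apart (log2 fold change 2.82 ± 0.10 SE at an adjusted p of 3.23e-08). Nr1h3, which encodes liver X receptor alpha, had 177 and 145 normalised counts in Mertk-KO, against 25.9, 28.96 and 28.3 in LXR-DKO and 157, 155 and 173 in WT, a log2 difference of 2.49 ± 0.14 (SE; limma adjusted p = 2.3e-06). Some reads of both genes were still counted in every LXR-DKO heart. In the second deposited table, which holds normalised TPM (a length-adjusted measure of transcript abundance), the gap was smaller. There Nr1h2 had 36.6 and 32.9 TPM in Mertk-KO and 17.03, 16.23 and 19.50 TPM in LXR-DKO (log2 fold change 0.95, limma adjusted p = 0.00889). Nr1h3 had 9.95 and 6.77 TPM in Mertk-KO and 7.39, 6.04 and 6.19 TPM in LXR-DKO, so that its libraries overlapped in range and it was not called (0.30, adjusted p = 0.407).

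Mertk had 75.7 and 89.4 normalised counts in Mertk-KO, against 93.6, 103 and 100.5 in LXR-DKO and 131, 147 and 129.9 in WT. Both Mertk-KO hearts were below all LXR-DKO hearts, but the difference of -0.26 ± 0.19 (SE; limma adjusted p = 0.47) was not called. Against WT the log2 fold change of Mertk was -0.71 in Mertk-KO (adjusted p = 0.0408) and -0.45 in LXR-DKO (adjusted p = 0.364). The value sums reads over the whole gene and the labels do not name the deleted part, so it does not check the Mertk-KO label. Siglec1, the gene of the macrophage surface protein CD169, had 87.9 and 66.8 normalised counts in Mertk-KO and 63.5, 46.9 and 47.1 in LXR-DKO and was not called (log2 fold change 0.55 ± 0.89 SE at an adjusted p of 0.773).

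**Figure D1:**
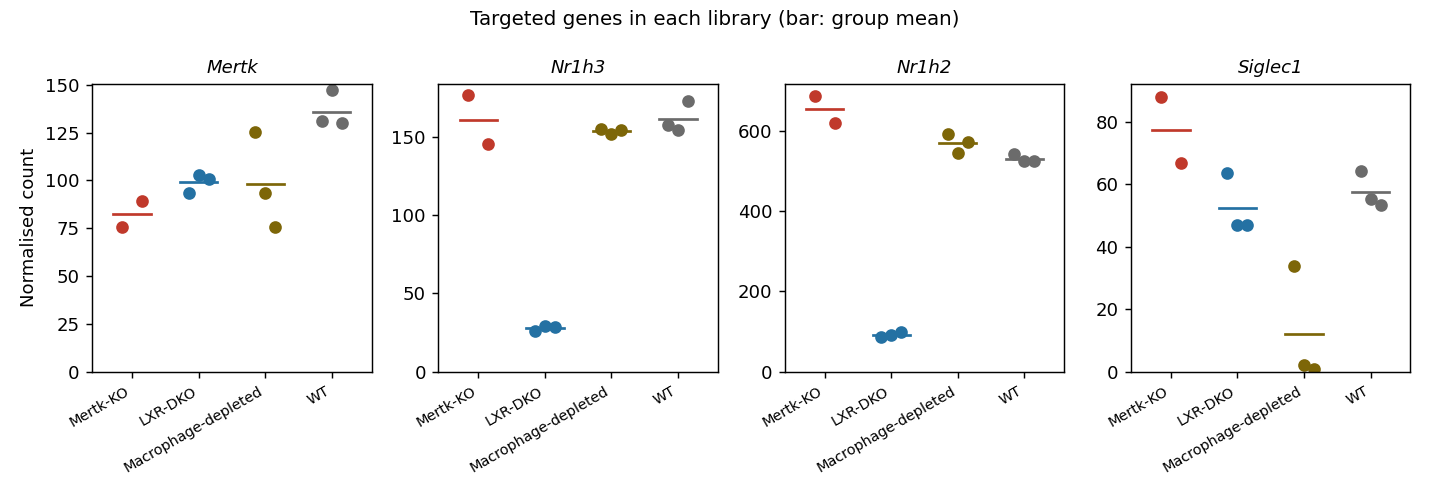
Normalised counts (y axes, each starting at 0) of Mertk, Nr1h3, Nr1h2 and Siglec1 in each library (points) of the 4 groups (x axis), with bars at the group means. Nr1h3 and Nr1h2 are low in the 3 LXR-DKO libraries and not in the other groups, whereas the 2 Mertk-KO values of Mertk lie just below the LXR-DKO values.

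In all, 341 genes were called, or 2.46% of those tested: 95 were higher in Mertk-KO (0.684%) and 246 lower (1.77%). The Mertk-KO and LXR-DKO libraries did not overlap for any of the 341, and they did not overlap for 31.5% of all genes tested. Of the called genes 294 were protein coding. How many were called depended on single libraries: 510 without Mertk-KO 1, 2168 without Mertk-KO 2, 72, 212 and 74 without LXR-DKO 1, 2 and 3, and 138 to 186 without any 1 Macrophage-depleted or WT library, which enter only through the shared estimate of the spread. With Mertk-KO down to 1 library, that library is assumed to vary like the other groups. In all 11 of those fits 55 genes kept the call, 17 higher and 38 lower, but that check changes few libraries at a time. Of the 55, 17 were called with only the 5 libraries compared in the fit, 18 with weights per library, and 22 of the 45 with a value in the TPM table. Of those 45, 6 were called in all 3 of these settings, among them Nr1h2, Kcnj14, Ush1c, Manba and Ndrg4. Over all genes tested, 20.9% had an unadjusted p below 0.05 and 46.6% a fold change above 0, against which the counts for gene lists are read.

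**Figure D2:**
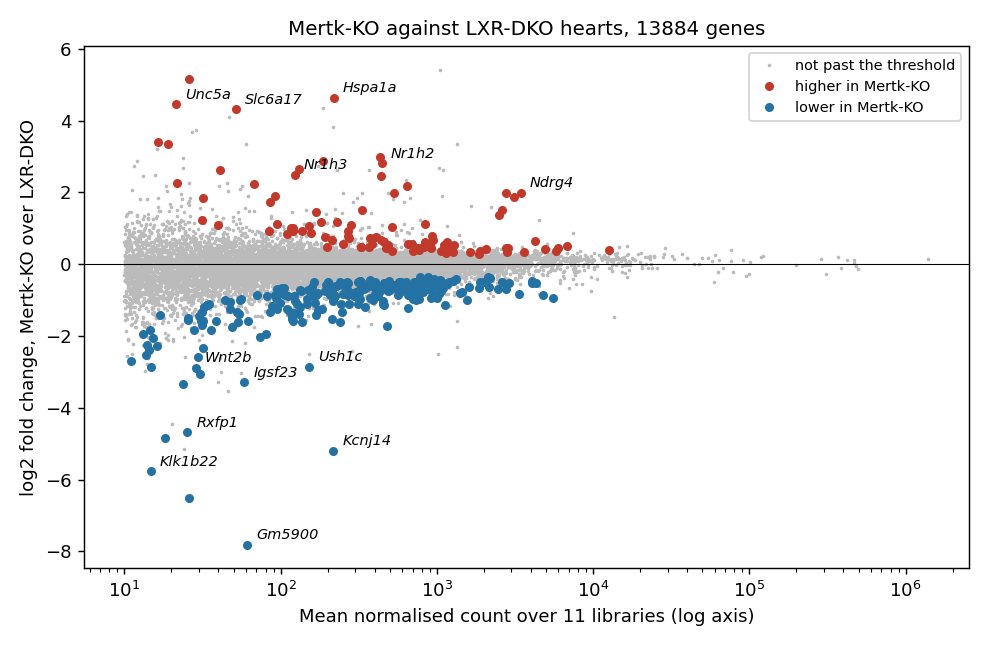
Log2 fold change of Mertk-KO over LXR-DKO (y axis) against the mean normalised count over all 11 libraries (x axis, log scale) for the 13884 genes tested, with the 95 genes called higher in red and the 246 called lower in blue. The lower genes are more numerous, and the few with the greatest differences, such as Kcnj14 and Klk1b22, lie well away from the body of the plot.

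Among the genes higher in Mertk-KO, some, such as Slc6a17 and Unc5a, were at or near 0 in LXR-DKO hearts. Others, such as Ndrg4 and Manba, were lower in LXR-DKO hearts without being near 0. Slc6a17, a vesicular transporter of neutral amino acids in neurons, had 63.7 and 51.7 normalised counts in Mertk-KO, against 1.85, 1.21 and 2.93 in LXR-DKO and 103, 64.5 and 94.3 in WT, a log2 difference of 4.33 ± 0.30 (SE; limma adjusted p = 1.91e-05). Unc5a, a receptor for the guidance cue netrin, had 39.8 and 28.02 normalised counts in Mertk-KO and 0.926, 0 and 0.976 in LXR-DKO, where 2 reads were counted in all against 56 in Mertk-KO. Its ratio was 48.8, with an exact 95% interval of 12.9 to 413 that covers counting error only, and its adjusted p was 0.0011. Ndrg4, a cytosolic protein needed for heart growth in zebrafish, was abundant and had 4118 and 3989 normalised counts in Mertk-KO, against 1078, 1287 and 759.5 in LXR-DKO and 6039.8, 3858 and 4054 in WT (log2 fold change 1.99 ± 0.22 SE at an adjusted p of 0.0011). Manba, the lysosomal beta-mannosidase, had 402 and 391 normalised counts in Mertk-KO, against 134, 135 and 150.4 in LXR-DKO and 435, 434 and 391 in WT (log2 fold change 1.498 ± 0.10 SE at an adjusted p of 1.91e-05). Apod, a secreted lipid-binding apolipoprotein, had 62.4 and 75.4 normalised counts in Mertk-KO and 11.1, 14.5 and 16.6 in LXR-DKO, with 69.1, 66.5 and 49.2 in WT (log2 fold change 2.23 ± 0.31 SE at an adjusted p of 0.00539). In each of these genes the WT hearts were on the Mertk-KO side of the gap. Slc6a17 and Manba lie on chromosome 3, where calls were bunched, as described below. All 5 genes kept the call whichever single library was left out. In the TPM table Slc6a17 had a log2 fold change of 1.12 (adjusted p = 0.0683) and Apod 1.39 (adjusted p = 0.0846), neither called, and Manba 0.90 (adjusted p = 0.0159). Unc5a and Apod also lost the call with only the 5 libraries or with weights per library. Ndrg4, Manba and Apod were chosen after their values were seen.

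Other genes with large differences in that direction rested on fewer libraries. Tmem56, a membrane protein, had 37.2 and 68.96 normalised counts in Mertk-KO and 8.34, 12.1 and 3.91 in LXR-DKO (log2 fold change 2.62 ± 0.53 SE at an adjusted p of 0.0333), and lost the call without LXR-DKO 1, LXR-DKO 3 or WT 3 (adjusted p up to 0.0967). Zfp429, a zinc finger gene of a large repeated family, had 21.8 and 39.8 normalised counts in Mertk-KO and 9.67, 0 and 1.47 in LXR-DKO (log2 fold change 3.36 ± 0.74 SE at an adjusted p of 0.0419). It kept the call only without Mertk-KO 1 or LXR-DKO 1 (adjusted p up to 0.112). Xlr3b, from an X-linked gene family with near-identical copies, had 21.7 and 9.96 normalised counts in Mertk-KO and 0, 2.23 and 0 in LXR-DKO, a ratio of 22.7 (exact 95% interval 5.68 to 197) on 2 reads in LXR-DKO. Its adjusted p was 0.0367, and up to 0.109 when any library other than Mertk-KO 2, LXR-DKO 2 or Macrophage-depleted 3 was left out. Reads of both families can be split between copies, so these values are uncertain.

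The genes lower in Mertk-KO were led by transcripts with high values in LXR-DKO and low values in both Mertk-KO and WT. Those named in this paragraph all lie on chromosome 7, several of them near Nr1h2, as described below. Kcnj14, an inward-rectifier potassium channel, had 21.2 and 18.3 normalised counts in Mertk-KO, against 739, 773 and 766 in LXR-DKO and 11.7, 9.21 and 16.8 in WT, a log2 difference of -5.20 ± 0.28 (SE; limma adjusted p = 2.3e-06). Ush1c, the scaffold protein harmonin of sensory hair bundles, had 49.1 and 51.7 normalised counts in Mertk-KO, against 354, 453 and 323 in LXR-DKO and 79.7, 46.1 and 93.3 in WT (log2 fold change -2.86 ± 0.25 SE at an adjusted p of 0.000145). Gabrg3, a GABA receptor subunit, had 1.33 and 1.078 normalised counts in Mertk-KO and 70.4, 49.5 and 69.3 in LXR-DKO. The 2 reads of Gabrg3 in Mertk-KO stood against 188 in LXR-DKO, a ratio of 0.0186 (exact 95% interval 0.00223 to 0.0680, adjusted p = 0.0011). Klk1b22, a kallikrein-type protease, had 0 reads in both Mertk-KO hearts and 59.3, 55.5 and 46.9 normalised counts in LXR-DKO, at least 30.2-fold lower in Mertk-KO when 3 reads are allowed over the group, and was at 0 in all WT hearts too (adjusted p = 0.00339). Kallikrein genes of this cluster resemble each other, so its reads may be shared with neighbours. Igsf23, an immunoglobulin-domain gene, had 17.3 and 12.9 normalised counts in Mertk-KO, against 216, 163 and 105 in LXR-DKO and 39.3, 28.7 and 11.1 in WT (log2 fold change -3.29 ± 0.48 SE at an adjusted p of 0.00731).

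Wnt2b, a secreted Wnt ligand, had 5.31 and 7.54 normalised counts in Mertk-KO, against 57.4, 53.1 and 48.8 in LXR-DKO and 19.1, 26.4 and 12.6 in WT (log2 fold change -2.88 ± 0.33 SE at an adjusted p of 0.00134). Gcnt1, an enzyme that branches O-linked glycans, had 26.9 and 50.6 normalised counts in Mertk-KO, against 139, 162 and 160.1 in LXR-DKO and 43.6, 53.2 and 47.2 in WT (log2 fold change -2.02 ± 0.25 SE at an adjusted p of 0.0025). Both kept the call in all 11 fits without 1 library, as did Kcnj14, Ush1c, Gabrg3, Klk1b22 and Igsf23. Wnt2b, Klk1b22 and Igsf23 lost it with weights per library and Gcnt1 with only the 5 libraries. In the TPM table Gcnt1 had a log2 fold change of -1.09 (adjusted p = 0.0413) and Klk1b22 -2.78. Rxfp1, the receptor of the hormone relaxin, was at 0 in both Mertk-KO hearts, at least 17.01-fold lower than LXR-DKO with 22.2, 66.4 and 9.76 normalised counts, and WT held 58.5, 39.9 and 12.6. The call of Rxfp1 (adjusted p = 0.0254) was lost without LXR-DKO 1 or LXR-DKO 2 (up to 0.0763). Hif3a, a hypoxia-inducible factor subunit, had 11.96 and 6.47 normalised counts in Mertk-KO and 62.6, 42.3 and 73.2 in LXR-DKO (log2 fold change -2.58 ± 0.41 SE at an adjusted p of 0.0124), and lost the call without LXR-DKO 1 or LXR-DKO 3 (up to 0.0539). Amd2, a copy of S-adenosylmethionine decarboxylase, had 8.19 and 5.82 normalised counts in Mertk-KO and 34.2, 67.4 and 118 in LXR-DKO (adjusted p = 0.0446). Zfp457 had 5.32 and 4.37 normalised counts in Mertk-KO and 30.2, 28.9 and 30.3 in LXR-DKO (adjusted p = 0.0462). Amd2 kept the call only without Mertk-KO 2 or WT 3 and Zfp457 only without Mertk-KO 2 or Macrophage-depleted 1, with adjusted p up to 0.129 and 0.128 otherwise.

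Some called genes have near-identical copies. Gm5900 is a 375-base transcript whose sequence matches Lamtor3, a subunit of the lysosomal scaffold that recruits mTORC1, at 373 of 375 bases (99.5%). It had 0 reads in Mertk-KO and 234, 223 and 213 normalised counts in LXR-DKO, at least 125-fold lower in Mertk-KO (adjusted p = 4.36e-05). Lamtor3 itself had 803 and 799.6 normalised counts in Mertk-KO and 523, 550.3 and 557 in LXR-DKO, and was called higher (log2 fold change 0.56 ± 0.08 SE at an adjusted p of 0.00731). Summed, the pair held 803 and 799.6 normalised counts in Mertk-KO and 757, 774 and 770.4 in LXR-DKO, so the sum differed far less than either member. The same held for Gm10093, whose sequence matches the histone deacetylase gene Hdac1 at 1435 of 1444 bases (99.4%). Gm10093 had 0 reads in Mertk-KO and 85.3, 135 and 64.9 normalised counts in LXR-DKO, and Hdac1 had 342 and 308 in Mertk-KO and 181, 177 and 153 in LXR-DKO (log2 fold change 0.93 ± 0.11 SE at an adjusted p of 0.00149). Their sum was 342 and 308 normalised counts in Mertk-KO, against 267, 312 and 218 in LXR-DKO. In the TPM table neither Lamtor3 (0.20, adjusted p = 0.199) nor Hdac1 (0.66, adjusted p = 0.07) nor Gm5900 (-2.50, adjusted p = 0.0594) was called. The called difference of Lamtor3 and of Hdac1 is therefore uncertain. Both pairs were chosen after their values were seen.

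Interferons switch on genes of antiviral defence, among them the immunity-related GTPases and guanylate-binding proteins that attack intracellular microbes, and interferon gamma also raises the genes of MHC molecules, which display peptides to T cells. On a list of 31 interferon-stimulated and immune GTPase genes, 30 were tested, all 30 had a fold change above 0 and the median was 1.38, beside -0.02 over all genes tested. Of the 30, 4 passed the threshold, all higher in Mertk-KO, beside the 0.684% of all genes that did so. The 2 Mertk-KO hearts differed widely on this list: the median difference from the LXR-DKO mean was 0.46 in Mertk-KO 1 and 2.47 in Mertk-KO 2. By the same measure WT hearts were at 0.17, 0.38 and 0.31, and Macrophage-depleted hearts at 0.04, 0.56 and 0.38. Mertk-KO 1 was thus within the range of the hearts of other groups, and only Mertk-KO 2 stood apart. Without Mertk-KO 2 the median was 0.46 and 5 members were called, 3 higher and 2 lower, beside 15.6% of all genes (3.73% higher and 11.9% lower). Without Mertk-KO 1 it was 2.47 and 29 were called, all higher, beside 1.94% of all genes called higher and 1.74% lower. With 1 LXR-DKO library left out 0 to 1 members were called, and with 1 Macrophage-depleted or WT library left out 1 to 2.

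Promoter sequences of 5 of these GTPase genes are shown because the letters read by interferon-activated factors lie in each of them. They run from 120 bases before to 10 bases after the annotated start, 5′ to 3′ on the gene's strand, and come from RefSeq on GRCm38.p6. Capitals mark the interferon-stimulated response element (GAAA, any 2 bases, GAAA) and the gamma-activated site TTCNNNGAA, where N is any base, searched on both strands, and the elements do not overlap each other in these windows except for the 2 overlapping response elements of Irgm1.
Tgtp1 (chr11:48992237-48992366, minus strand): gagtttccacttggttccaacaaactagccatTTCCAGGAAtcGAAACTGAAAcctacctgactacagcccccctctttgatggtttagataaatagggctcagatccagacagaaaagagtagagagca
Tgtp2 (chr11:49064203-49064332, minus strand): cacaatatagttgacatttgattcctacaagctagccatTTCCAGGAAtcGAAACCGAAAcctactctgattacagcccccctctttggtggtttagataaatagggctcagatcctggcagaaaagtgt
Igtp (chr11:58199436-58199565, plus strand): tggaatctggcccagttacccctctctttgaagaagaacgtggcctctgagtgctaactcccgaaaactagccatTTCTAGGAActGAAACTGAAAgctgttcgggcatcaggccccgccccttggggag
Irgm1 (chr11:48871411-48871540, minus strand): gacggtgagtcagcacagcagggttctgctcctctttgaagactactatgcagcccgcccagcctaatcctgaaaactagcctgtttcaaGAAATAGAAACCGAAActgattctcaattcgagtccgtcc
Irgm2 (chr11:58214857-58214986, plus strand): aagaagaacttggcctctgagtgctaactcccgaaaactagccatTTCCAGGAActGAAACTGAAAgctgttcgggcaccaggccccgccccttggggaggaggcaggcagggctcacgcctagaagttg
In windows of 250 bases before to 50 bases after the start, the response element was present in 17 of the 25 list members with an entry and in 3.99% of all 27025 genes. The gamma-activated site was present in 10 of the 25 and in 9.55% of all genes. These motifs were chosen after the values were seen, and a match is a description of the letters only.

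The called members were Tgtp1 and Tgtp2, a pair of closely related immunity-related GTPase genes, and Oas1a and Bst2, which act against viral RNA and virus release. Tgtp2 had 354 and 2525 normalised counts in Mertk-KO, against 116, 106 and 132 in LXR-DKO and 168, 238 and 197 in WT (log2 fold change 3.00 ± 0.65 SE at an adjusted p of 0.0392), and Tgtp1 had 182 and 911 in Mertk-KO and 51.9, 51.2 and 60.04 in LXR-DKO (log2 fold change 2.89 ± 0.53 SE at an adjusted p of 0.0212). In both genes even the lower Mertk-KO heart, Mertk-KO 1, was above every LXR-DKO heart. Tgtp1 lost the call without LXR-DKO 1 or LXR-DKO 3 (adjusted p up to 0.0748), and Tgtp2 without any LXR-DKO or WT library or Macrophage-depleted 3 (up to 0.113). Oas1a had 48.3 and 72.4 normalised counts in Mertk-KO and 26.7, 29.95 and 25.03 in LXR-DKO (log2 fold change 1.09 ± 0.25 SE at an adjusted p of 0.0447). Bst2 had 279 and 671 in Mertk-KO and 179.7, 226 and 176 in LXR-DKO (log2 fold change 1.165 ± 0.28 SE at an adjusted p of 0.0498). Oas1a and Bst2 were called only with all libraries or without Mertk-KO 1, with adjusted p up to 0.12 and 0.143.

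Other members reached far higher levels in Mertk-KO 2 and were not called, and in these Mertk-KO 1 lay nearer LXR-DKO. Igtp, an immunity-related GTPase, had 264 and 12462 normalised counts in Mertk-KO 1 and 2, against 177, 228 and 135 in LXR-DKO (adjusted p = 0.104). Irgm2 had 491 and 7521 in Mertk-KO 1 and 2, against 310.4, 306 and 280.01 in LXR-DKO (adjusted p = 0.0814). Gbp6, a guanylate-binding protein, had 421 and 7788 normalised counts in Mertk-KO 1 and 2, against 286, 221 and 401 in LXR-DKO (adjusted p = 0.1). In Iigp1 the Mertk-KO hearts fell on opposite sides of LXR-DKO, with 352 and 16197 normalised counts in Mertk-KO 1 and 2, against 924, 732 and 719 in LXR-DKO (adjusted p = 0.418).

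Genes of antigen presentation followed the same order of libraries. None of the 7 MHC class II genes was called by limma, where the smallest adjusted p was 0.0627. All 7 had an unadjusted limma p below 0.05, beside 20.9% of all genes. Each had a fold change above 0, beside 46.6% of all genes, and their median was 1.77, with 0.72 in Mertk-KO 1 and 2.78 in Mertk-KO 2. By the same measure WT hearts were at 0.24, 0.54 and 0.63, and Macrophage-depleted hearts at 0.63, -0.44 and -0.30. LXR-DKO 1 was at 0.36. Mertk-KO 1 thus lay close to the highest of these hearts, and only Mertk-KO 2 stood far apart. H2-Aa, a class II chain, had 679.7 and 2750.3 normalised counts in Mertk-KO and 486, 375 and 295 in LXR-DKO. Of class I genes, H2-Q6 had 542 and 1495 normalised counts in Mertk-KO, against 194, 123 and 184 in LXR-DKO and 294, 289 and 389 in WT, and kept its call without any single library though not with only the 5 libraries in the fit (log2 fold change 2.45 ± 0.34 SE at an adjusted p of 0.00524). Nlrc5, the transactivator of class I genes, had 102 and 623 in Mertk-KO and 33.3, 50.7 and 36.1 in LXR-DKO (log2 fold change 2.65 ± 0.54 SE at an adjusted p of 0.0341). It lost the call without any LXR-DKO or WT library or Macrophage-depleted 2 (adjusted p up to 0.106). B2m, the shared light chain of class I molecules, had 2966 and 12358 in Mertk-KO and 1764, 1592 and 1596 in LXR-DKO (log2 fold change 1.88 ± 0.40 SE at an adjusted p of 0.0367), and H2-K1 had 2593 and 11851 in Mertk-KO and 1374, 1442 and 1419 in LXR-DKO (log2 fold change 1.97 ± 0.42 SE at an adjusted p of 0.0386). For both genes the Mertk-KO 1 value alone was called (limma adjusted p = 0.000353 for B2m and 0.000993 for H2-K1 without Mertk-KO 2), whereas without any LXR-DKO, WT or Macrophage-depleted library it was lost (up to 0.102 and 0.113). B2m and H2-K1 were chosen after their values were seen, and class I genes have near-identical copies between which reads can be split.

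Immune cell markers moved with this block in part, and their part in it was not tested. In bulk tissue, fewer cells of a type and less RNA per cell cannot be told apart. All 17 pan-macrophage markers were tested, a list that includes Mertk, the gene targeted in Mertk-KO. Of them 16 had a fold change above 0, beside 46.6% of all genes, and the 1 below 0 was Mertk (-0.26). The median was 0.76 (0.36 in Mertk-KO 1 and 1.07 in Mertk-KO 2), and by library WT hearts were at 0.17, 0.35 and 0.21. Of the 17, 2 were called higher, beside 0.684% of all genes. These were Laptm5, a lysosomal membrane protein of blood cells, with 331 and 459 normalised counts in Mertk-KO and 256, 209.97 and 239 in LXR-DKO (log2 fold change 0.73 ± 0.15 SE at an adjusted p of 0.0344), and Mpeg1, the pore-forming perforin-2, with 185 and 393 in Mertk-KO and 153, 112 and 98.6 in LXR-DKO (log2 fold change 1.17 ± 0.27 SE at an adjusted p of 0.0471). Laptm5 kept the call only without Mertk-KO 1, Mertk-KO 2, Macrophage-depleted 1 or Macrophage-depleted 3 and Mpeg1 only without Mertk-KO 1 (adjusted p up to 0.084 and 0.132). Lyz2, the macrophage lysozyme, just missed the threshold at 1810.5 and 2594 normalised counts in Mertk-KO and 1413, 1177 and 1122 in LXR-DKO (adjusted p = 0.0504). Of 13 resident cardiac macrophage markers 0 were called (limma, 2 at an unadjusted p below 0.05, beside 20.9% of all genes). The median was 0.37, with 0.40 in Mertk-KO 1 and 0.34 in Mertk-KO 2. The monocyte markers (6 tested) had a median of 0.37, with 0.24 in Mertk-KO 1 and 1.13 in Mertk-KO 2. Of 11 T and NK cell markers, 10 were under the minimum level for testing.

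**Figure D3:**
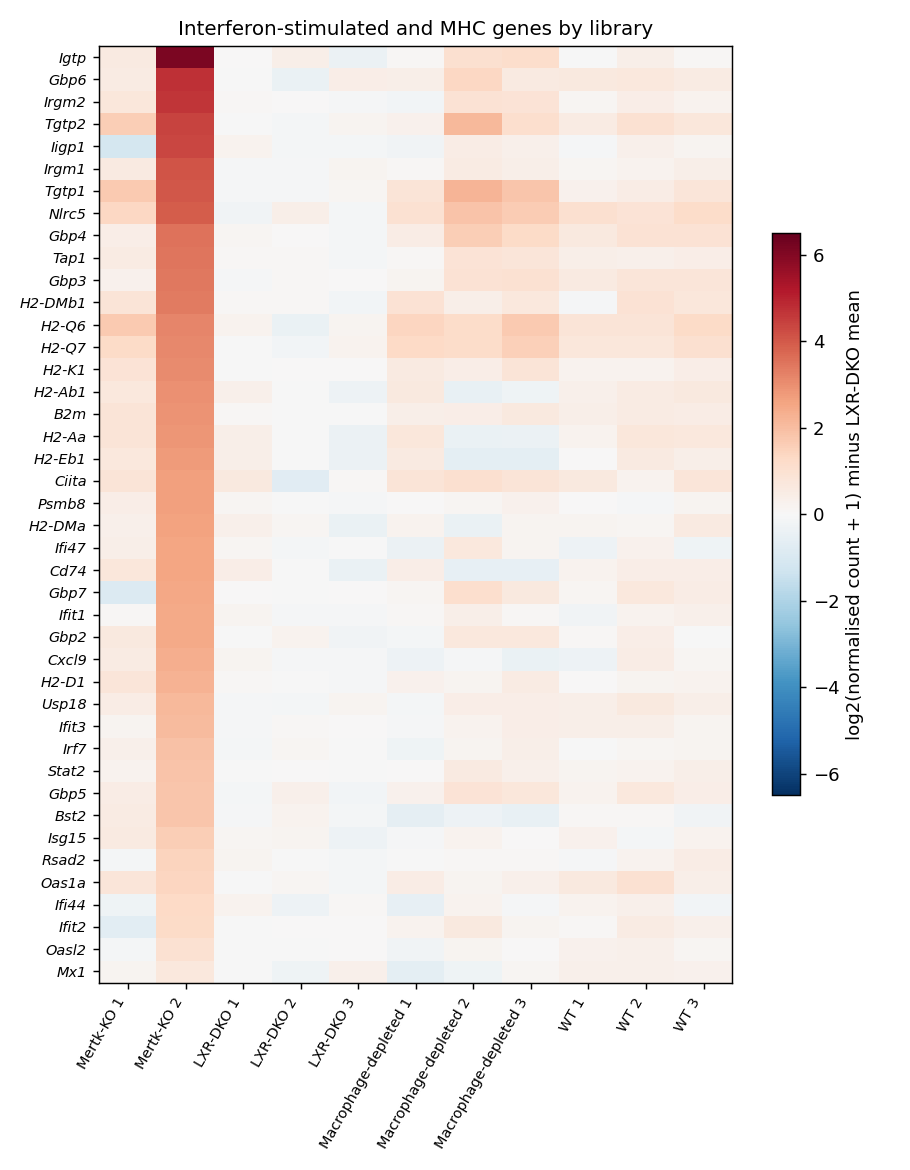
Difference of each library (columns) from the LXR-DKO mean on the log2(normalised count + 1) scale (colour) for 29 of the 30 interferon-stimulated genes tested, the MHC class II genes and selected MHC class I genes (rows, ordered by Mertk-KO 2). Mertk-KO 2 is high throughout, Mertk-KO 1 is above the LXR-DKO mean by less in most genes, and in a few genes, such as Iigp1, it is below it.

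Liver X receptor target genes were split in direction. Of 24 listed genes of lipid handling, 19 were tested, and 1 was called higher and 1 lower in Mertk-KO, beside 0.684% and 1.77% of all genes. The median was -0.22 (0.02 in Mertk-KO 1 and -0.30 in Mertk-KO 2). Srebf1, the transcription factor of fatty acid synthesis, had 537 and 515 normalised counts in Mertk-KO, against 377, 324 and 293 in LXR-DKO and 517, 456 and 516 in WT, so that LXR-DKO was the lower group (log2 fold change 0.67 ± 0.13 SE at an adjusted p of 0.0282). Its call was lost without LXR-DKO 2 or LXR-DKO 3 (adjusted p up to 0.084). Elovl5, an elongase of polyunsaturated fatty acids, had 347 and 339 in Mertk-KO and 444, 508 and 443 in LXR-DKO (log2 fold change -0.44 ± 0.10 SE at an adjusted p of 0.0433), and kept the call only without Mertk-KO 2 (up to 0.101). Abca1, the cholesterol exporter and a textbook target, had 378 and 373 normalised counts in Mertk-KO, against 637, 521 and 698 in LXR-DKO and 569, 505 and 647 in WT. The higher values were thus in the hearts labelled as lacking the receptors, and the difference was not called (log2 fold change -0.71 ± 0.19 SE at an adjusted p of 0.064). Abcg1, the partner exporter, had 67.7 and 49.6 in Mertk-KO and 101, 95.3 and 65.4 in LXR-DKO (adjusted p = 0.212). Scd1, the stearoyl-CoA desaturase, had 245 and 182 normalised counts in Mertk-KO and a wide range of 663, 1419 and 329 in LXR-DKO (adjusted p = 0.0641). The related desaturase Scd4, chosen after its values were seen, was called at 269.9 and 204 normalised counts in Mertk-KO and 646, 577 and 415 in LXR-DKO (log2 fold change -1.19 ± 0.22 SE at an adjusted p of 0.0212), and lost the call without LXR-DKO 1 or LXR-DKO 2 (up to 0.0798). The full receptor element, a pair of AGGTCA spaced by 4 bases, was in 0 of the 18 target promoters with an entry and in 0.0148% of all genes, and a single AGGTCA in 2 of 18 and in 18.1% of all genes (both strands, 250 bases before to 50 after the start). At a share of 0.0148%, finding 0 in 18 promoters cannot tell the list apart from all genes.

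Of 22 tested genes of cholesterol synthesis and uptake, 1 was called, beside 2.46% of all genes. This was Srebf2, the transcription factor of that pathway, with 446 and 407 normalised counts in Mertk-KO and 295, 334 and 288 in LXR-DKO (log2 fold change 0.48 ± 0.11 SE at an adjusted p of 0.0441). Srebf2 kept the call only without Mertk-KO 2 or LXR-DKO 2 (adjusted p up to 0.129). None of the 10 retinoid X receptors and cofactors was called by limma (2 at an unadjusted p below 0.05, beside 20.9% of all genes). Their median was -0.04, with 0.13 in Mertk-KO 1 and -0.15 in Mertk-KO 2.

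The machinery of dead-cell clearance was measured in 25 genes, and 0 were called by limma (4 had an unadjusted p below 0.05, beside 20.9% of all genes). Axl, the sister receptor of MERTK, had 1192 and 1015 normalised counts in Mertk-KO and 1136, 1075 and 862 in LXR-DKO (log2 fold change 0.11 ± 0.16 SE at an adjusted p of 0.731). Gas6, the bridging ligand of the TAM receptors, had 1985 and 1723 in Mertk-KO and 1668, 1827 and 1770.4 in LXR-DKO (log2 fold change 0.08 ± 0.10 SE at an adjusted p of 0.697). Mfge8, the bridging protein to integrins, had 1966 and 1561 in Mertk-KO and 1432, 1467 and 1335 in LXR-DKO (log2 fold change 0.31 ± 0.10 SE at an adjusted p of 0.106), and Timd4, a phosphatidylserine receptor of resident macrophages, had 26.6 and 64.7 in Mertk-KO and 18.5, 14.5 and 22.5 in LXR-DKO (log2 fold change 1.15 ± 0.42 SE at an adjusted p of 0.142). The median of the 25 was 0.08, with 0.19 in Mertk-KO 1 and -0.01 in Mertk-KO 2.

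Immediate early genes are switched on within minutes of a stimulus. Of 23 immediate early genes tested, 21 had a fold change above 0, beside 46.6% of all genes. The median was 0.82 (0.81 in Mertk-KO 1 and 0.53 in Mertk-KO 2). By the same measure WT hearts ran from -0.45 in WT 2 to 0.52 in WT 3, so Mertk-KO 2 was at the level of WT 3. Of the 23, 2 were called higher, beside 0.684% of all genes. Atf3, a stress-induced transcription factor, had 296 and 213 normalised counts in Mertk-KO, against 66.7, 77.2 and 57.6 in LXR-DKO and 29.8, 29.7 and 80.7 in WT (log2 fold change 1.90 ± 0.39 SE at an adjusted p of 0.0345). Jun, a subunit of AP-1, had 1998 and 865 in Mertk-KO, against 616, 617 and 568 in LXR-DKO and 660.5, 581 and 861 in WT (log2 fold change 1.13 ± 0.27 SE at an adjusted p of 0.0483). Atf3 lost the call without Mertk-KO 1, Macrophage-depleted 2 or any LXR-DKO library, and Jun kept it only without Mertk-KO 2 (adjusted p up to 0.102 and 0.128). Fos, the partner of Jun, had 268 and 543 normalised counts in Mertk-KO and 159, 124 and 155 in LXR-DKO, and its WT values of 216, 46.1 and 484 spanned both groups (adjusted p = 0.313). Without Mertk-KO 1, 0 of the 23 were called by limma, beside 3.67% of all genes. Without Mertk-KO 2, 8 were, all higher, beside 3.73% of all genes called higher. The cAMP response element TGACGTCA was in 3 of the 20 promoters with an entry and in 2.03% of all genes.

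The heat shock genes with the greatest differences were highest in Mertk-KO 1. Hspa1a, the inducible chaperone HSP70, had 2007 and 105 normalised counts in Mertk-KO 1 and 2, against 28.7, 10.1 and 18.2 in LXR-DKO and 21.2, 39.05 and 57.4 in WT (log2 fold change 4.64 ± 0.90 SE at an adjusted p of 0.0281). Even Mertk-KO 2 was above all LXR-DKO hearts, and the call was lost without any LXR-DKO library (adjusted p up to 0.0812). Its near-identical neighbour Hspa1b, with which reads can be shared, had 1995 and 75.4 in Mertk-KO and 33.2, 23.7 and 24.3 in LXR-DKO (adjusted p = 0.0529). Dnajb1, a partner of HSP70, had 848 and 262 in Mertk-KO and 155, 199 and 173 in LXR-DKO (adjusted p = 0.0593). Hspb8, a small heat shock protein abundant in muscle, had 7854 and 7683 normalised counts in Mertk-KO and 5689, 5679.8 and 5596 in LXR-DKO, with little spread in either group (log2 fold change 0.46 ± 0.09 SE at an adjusted p of 0.0311), and its call was lost without any LXR-DKO or WT library (up to 0.0932). In all, 2 of 18 tested members were called higher, beside 0.684% of all genes, and 16 had a fold change above 0, beside 46.6%. The median was 0.32, with 0.45 in Mertk-KO 1 and 0.30 in Mertk-KO 2. Without Mertk-KO 2, 12 of the 18 were called, 11 higher and 1 lower, beside 3.73% of all genes called higher and 11.9% lower. The heat shock element (GAA, TTC and GAA in turn, or TTC, GAA and TTC, with 2 bases between each) was in 4 of 13 promoters with an entry and in 0.662% of all genes. Atf4, the transcription factor of the integrated stress response, was 1 called gene of the 19 on its list, beside 2.46% of all genes. It had 1143 and 957 normalised counts in Mertk-KO and 722, 753 and 757 in LXR-DKO (log2 fold change 0.49 ± 0.10 SE at an adjusted p of 0.0363), and kept the call only without Mertk-KO 2 or WT 2 (up to 0.115).

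Of 20 sarcomere genes, 2 were called lower in Mertk-KO, beside 1.77% of all genes. The list had 9 fold changes above 0 and 11 below, and its median was 0.06 and -0.11 for Mertk-KO 1 and 2. Nebl, which encodes the Z-disc protein nebulette, had 2173 and 3222 normalised counts in Mertk-KO, against 4728, 4187 and 5494 in LXR-DKO and 5780.4, 4812 and 5404 in WT (log2 fold change -0.85 ± 0.15 SE at an adjusted p of 0.0206), and lost the call without LXR-DKO 1 or LXR-DKO 3 (adjusted p up to 0.0708). Myh7, the slow myosin heavy chain that rises in hypertrophy, had 1744 and 2739.7 in Mertk-KO, against 3901, 4176 and 4446 in LXR-DKO and 3453, 4116 and 3192 in WT (log2 fold change -0.93 ± 0.22 SE at an adjusted p of 0.0466), and kept the call only without Mertk-KO 2 or Macrophage-depleted 2 (up to 0.153). On the hypertrophy list of 12 tested genes, 1 was called higher and 1, Myh7, lower, beside 0.684% and 1.77% of all genes. Rcan1, a regulator of calcineurin, was called higher at 1284 and 1648 normalised counts in Mertk-KO and 917, 822 and 982 in LXR-DKO (log2 fold change 0.68 ± 0.14 SE at an adjusted p of 0.0308), a call lost without WT 2 or any LXR-DKO library (up to 0.0866). Nppb, the natriuretic peptide BNP, had 1872 and 1499.7 in Mertk-KO and 536, 666 and 1462 in LXR-DKO (adjusted p = 0.254). The T-type calcium channel gene Cacna1g had 364 and 264 normalised counts in Mertk-KO and 691, 705 and 519 in LXR-DKO (adjusted p = 0.0512). None of 14 calcium cycling genes was called by limma (2 at an unadjusted p below 0.05, beside 20.9% of all genes). Their median was -0.12, or 0.05 in Mertk-KO 1 and -0.18 in Mertk-KO 2.

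Atrial markers varied widely between hearts. Myl7, the atrial myosin light chain, had 203 and 22.6 normalised counts in Mertk-KO and 566, 2604 and 40.03 in LXR-DKO, a wide range within each group, and Sln, the atrial calcium pump inhibitor sarcolipin, had 49.1 and 2.16 in Mertk-KO and 143, 695 and 1.95 in LXR-DKO. Of 9 atrial markers tested, 8 had a fold change below 0, and the median was -0.82 (-0.41 in Mertk-KO 1 and -1.23 in Mertk-KO 2). By limma 0 were called, and 0 had an unadjusted p below 0.05, beside 20.9% of all genes. The LXR-DKO hearts spread as widely, from a list median of -1.23 to 1.64. Mesothelial markers (5 tested, medians -2.49 in Mertk-KO 1 and -1.52 in Mertk-KO 2), adipocyte markers (7, -0.39 and -0.46) and Schwann and neuron markers (5, -1.21 and -0.33) mostly had fold changes below 0. They had 0 calls by limma and 2, 1 and 3 members at an unadjusted p below 0.05, beside 20.9% of all genes. LXR-DKO 2 was the highest of the 5 hearts in atrial, mesothelial and adipocyte markers. The part of these tissues in the calls of other genes was not tested.

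Nr1d2, the clock repressor REV-ERB beta, had 952 and 942 normalised counts in Mertk-KO, against 1474, 1411 and 1668 in LXR-DKO and 1585, 2131 and 2024 in WT (log2 fold change -0.68 ± 0.12 SE at an adjusted p of 0.0189), with the call lost without LXR-DKO 1 or LXR-DKO 3 (adjusted p up to 0.0659). It was the 1 called of 18 clock genes, beside 2.46% of all genes. The median of the 18 was 0.36 in Mertk-KO 1 and -0.59 in Mertk-KO 2. Per1, a clock gene of the negative arm, had 1034 and 161 normalised counts in Mertk-KO 1 and 2, on either side of 344, 771 and 602 in LXR-DKO, and Arntl, of the positive arm, had 92.9 and 331 in Mertk-KO 1 and 2, again on either side of 167, 157 and 197 in LXR-DKO. The labels do not give the time of day of collection. Angpt1, a ligand that stabilises vessels, had 306 and 527 normalised counts in Mertk-KO and 932, 876 and 1007 in LXR-DKO (log2 fold change -1.22 ± 0.25 SE at an adjusted p of 0.0324), a call lost without Mertk-KO 1, Macrophage-depleted 2, WT 3 or any LXR-DKO library (up to 0.0967). The E-box CACGTG was in 5 of 15 clock promoters with an entry and in 8.09% of all genes.

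None of 60 nuclear respiratory chain genes, 13 genes of the mitochondrial genome, 32 of fatty acid oxidation, 21 of glycolysis, 30 proteasome subunits or 32 matrix genes was called by limma. At an unadjusted p below 0.05 there were 13, 0, 8, 5, 10 and 3 in that order, beside 20.9% of all genes. The medians were 0.15, 0.12, 0.16, 0.15, 0.16 and -0.02, and 50 of the 60 respiratory chain genes and 29 of the 30 proteasome genes had a fold change above 0, beside 46.6% of all genes. The medians by library were 0.08 and 0.22 in Mertk-KO 1 and 2 for the respiratory chain, where LXR-DKO 2 was also at 0.08, 0.13 and 0.24 for the proteasome, and -0.09 and 0.20 for the mitochondrial genome. Gpx4, the enzyme that removes lipid peroxides, was called at 6570.1 and 6472 normalised counts in Mertk-KO and 4492, 5239 and 4854 in LXR-DKO (log2 fold change 0.43 ± 0.09 SE at an adjusted p of 0.0359), 1 of 21 antioxidant genes, and Ctsd, the lysosomal protease cathepsin D, at 16293 and 14551 in Mertk-KO and 11369, 11728 and 12121 in LXR-DKO (log2 fold change 0.39 ± 0.09 SE at an adjusted p of 0.0397), 1 of 29 autophagy and lysosome genes. Another single call was Cenpf, a kinetochore protein of dividing cells (1 of 21 cell cycle genes), at 95.5 and 169 normalised counts in Mertk-KO and 388, 288 and 662 in LXR-DKO (log2 fold change -1.71 ± 0.32 SE at an adjusted p of 0.024). Each of these single calls stands beside 2.46% of all genes called. Egln1, the oxygen sensor PHD2, had 7019 and 6716 in Mertk-KO and 5299, 4933 and 5756 in LXR-DKO (log2 fold change 0.37 ± 0.08 SE at an adjusted p of 0.0431). On the hypoxia and angiogenesis list of 16, Egln1 was the 1 gene called higher and Angpt1 the 1 called lower, beside 0.684% and 1.77% of all genes. Cenpf lost the call without Mertk-KO 1, LXR-DKO 1 or LXR-DKO 3, and Egln1 kept it only without Mertk-KO 2 (up to 0.0698 and 0.121). Gpx4 lost the call without Mertk-KO 1, LXR-DKO 1, LXR-DKO 3 or any WT library, and Ctsd kept it only without Mertk-KO 2, Macrophage-depleted 2 or Macrophage-depleted 3 (adjusted p up to 0.12 and 0.126).

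**Figure D4:**
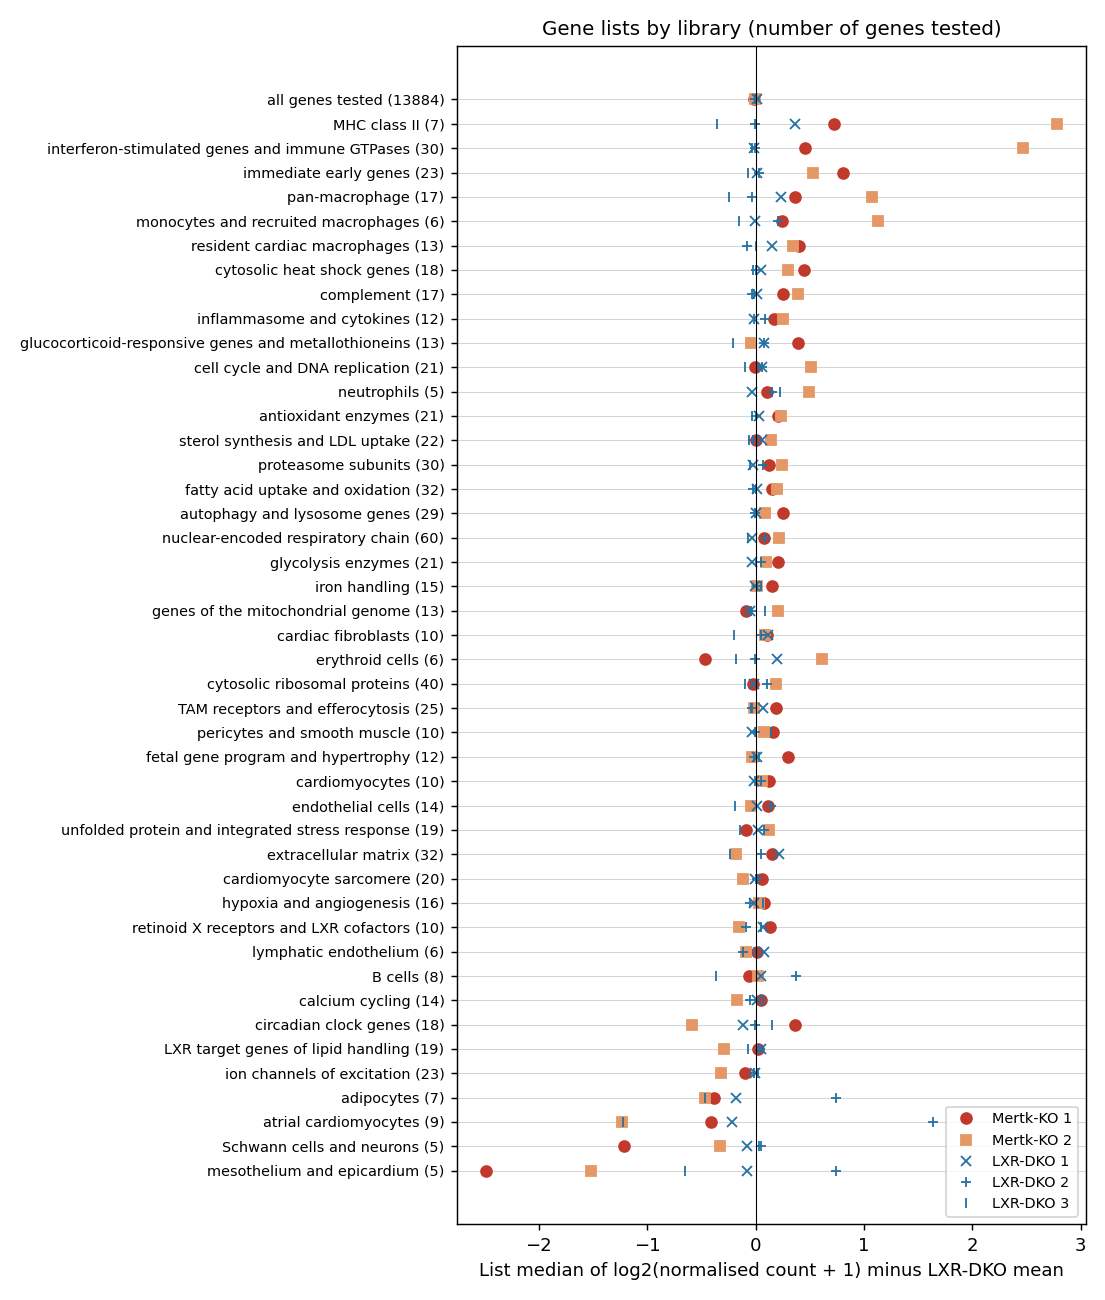
Median over each gene list (rows, with the number of genes tested) of the difference from the LXR-DKO mean on the log2(normalised count + 1) scale (x axis), for each Mertk-KO library (filled circles and squares) and each LXR-DKO library (crosses and bars). The interferon list sits at 0.46 and 2.47 in Mertk-KO 1 and 2 with all LXR-DKO libraries near 0, whereas in the atrial list the LXR-DKO libraries spread as far as the Mertk-KO ones.

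The share of called genes differed with position on the genome (GRCm38, GENCODE vM21). Within 5 Mb of Nr1h2 (chromosome 7, 44549616 to 44553951), 9 of 114 other genes were called (7.89%, beside 2.46% of all genes), 7 of them lower in Mertk-KO, and from 5 to 20 Mb 5 of 216 were. The 9 included Kcnj14 (chromosome 7, 45816460 to 45824782), Ush1c (chromosome 7, 46195350 to 46238503) and Klk1b22 (chromosome 7, 44112673 to 44116922). Bcat2, the mitochondrial branched-chain aminotransferase, had 1263 and 1376 normalised counts in Mertk-KO, against 2229, 2402 and 2288 in LXR-DKO and 1136, 1144 and 1019 in WT (log2 fold change -0.81 ± 0.10 SE at an adjusted p of 0.00168). Lrrc4b, a synaptic adhesion protein gene beside Nr1h2, had 166 and 144 in Mertk-KO, against 385, 403 and 669 in LXR-DKO and 127, 136 and 123 in WT (log2 fold change -1.60 ± 0.24 SE at an adjusted p of 0.0074). Trpm4, a calcium-activated cation channel of heart conduction, had 308 and 267 normalised counts in Mertk-KO and 446, 422 and 469 in LXR-DKO (log2 fold change -0.63 ± 0.10 SE at an adjusted p of 0.0122). All of these kept the call in each of the 11 fits without 1 library. Bcat2, Lrrc4b, Klk1b22 and Trpm4 lost it with weights per library, Lrrc4b and Trpm4 also with only the 5 libraries, and Trpm4 in the TPM table (-0.49, adjusted p = 0.106). Without Mertk-KO 2, 32 of the 114 were called, beside 15.6% of all genes. In Kcnj14, Ush1c, Klk1b22, Bcat2 and Lrrc4b the WT hearts lay far nearer Mertk-KO than LXR-DKO.

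Within 5 Mb of the other targeted genes fewer were called. Within 5 Mb of Nr1h3 (chromosome 2, 91184061 to 91202834) 1 of 53 genes was called (1.89%), Mdk, the growth factor midkine, at 10.6 and 15.1 normalised counts in Mertk-KO and 39.8, 42.2 and 31.2 in LXR-DKO (log2 fold change -1.49 ± 0.29 SE at an adjusted p of 0.0305). Mdk lost the call without Mertk-KO 1, WT 2 or any LXR-DKO library (adjusted p up to 0.0981). Within 5 Mb of Mertk (chromosome 2, 128698956 to 128802894) 3 of 100 were called (3.00%): Slc20a1, a phosphate transporter, at 259 and 252 in Mertk-KO and 315, 391 and 362 in LXR-DKO, the prion protein gene Prnp at 2975 and 2554 in Mertk-KO and 1933, 2007 and 2207 in LXR-DKO, and the channel kinase gene Trpm7 at 307 and 636 in Mertk-KO and 833, 767 and 951 in LXR-DKO. Each of these kept the call only without Mertk-KO 2 (adjusted p up to 0.115, 0.148 and 0.135). From 5 to 20 Mb of Mertk 9 of 157 were called (5.73%), B2m and Mgme1 among them, a higher share than from 5 to 20 Mb of Nr1h2 (2.31%).

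**Figure D5:**
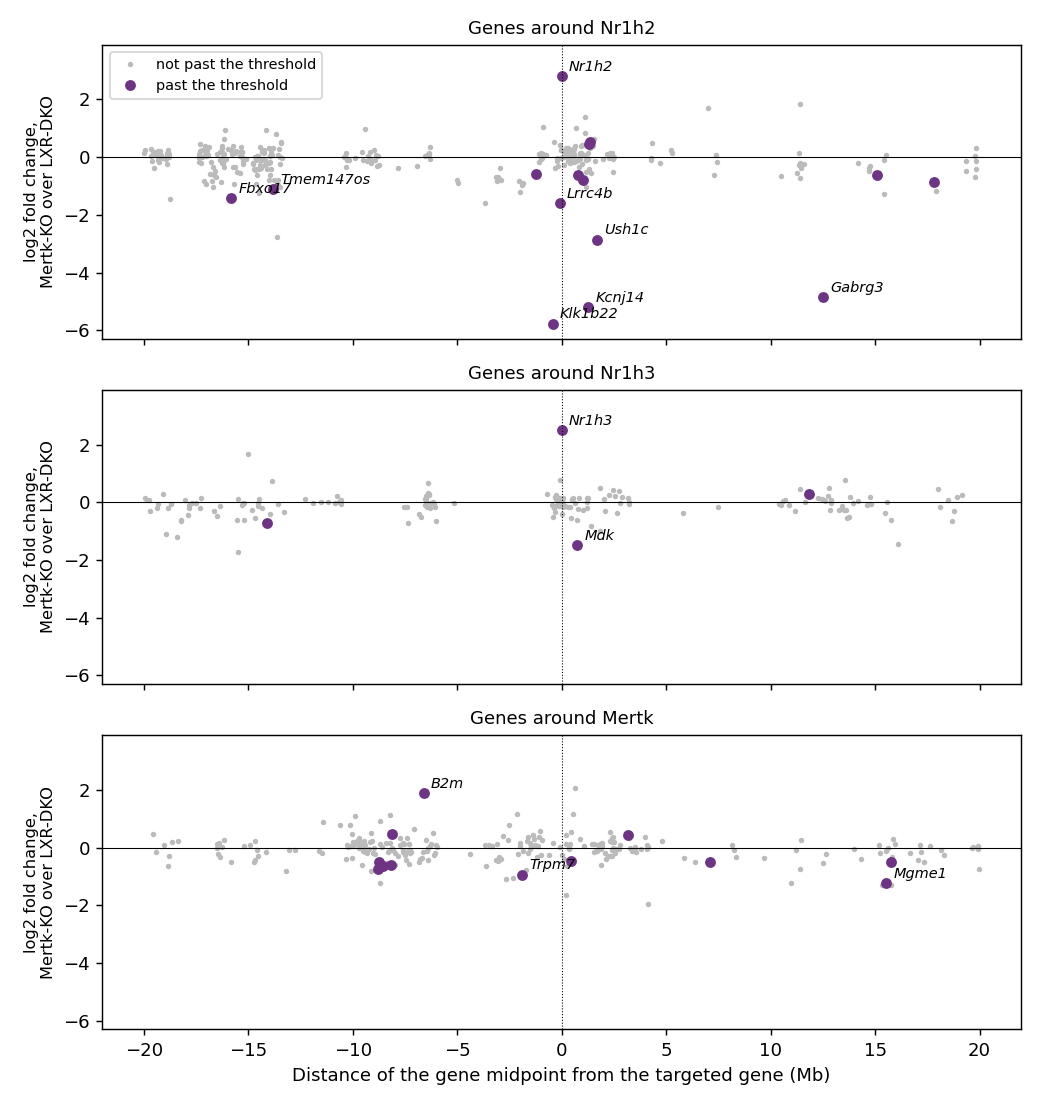
Log2 fold change of Mertk-KO over LXR-DKO (y axis) of genes within 20 Mb of Nr1h2, Nr1h3 and Mertk (panels) by distance from the targeted gene (x axis, Mb), with called genes in purple. The large negative values of Kcnj14, Ush1c and Klk1b22 lie close to Nr1h2, and no comparable group lies around Nr1h3 or Mertk.

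By chromosome, chromosome 3 had the highest share of called genes (32 of 709, or 4.51%), followed by chromosome 7 (47 of 1096, or 4.29%). The calls were bunched within them. Among stretches of 10 Mb with at least 20 genes tested, most calls fell on chromosome 7 from 10 to 20 Mb (13 of 96, 13.5%), on chromosome 7 from 40 to 50 Mb (10 of 116, Nr1h2 included) and on chromosome 3 from 120 to 130 Mb (9 of 46, 19.6%). That last stretch held Mcub, an inhibitory subunit of the mitochondrial calcium uniporter, at 37.2 and 28.02 normalised counts in Mertk-KO, against 7.41, 7.24 and 3.91 in LXR-DKO and 21.3, 27.6 and 24.1 in WT (log2 fold change 2.25 ± 0.37 SE at an adjusted p of 0.013). It also held Alpk1, a kinase that senses bacterial sugars, at 21.2 and 34.5 in Mertk-KO, against 110.2, 86.9 and 127 in LXR-DKO and 73.4, 74.8 and 68.1 in WT (log2 fold change -1.94 ± 0.21 SE at an adjusted p of 0.0011). Enpep, an aminopeptidase that cleaves angiotensin, had 226 and 206 normalised counts in Mertk-KO, against 411, 385 and 363 in LXR-DKO and 243, 209.9 and 180.2 in WT (log2 fold change -0.84 ± 0.13 SE at an adjusted p of 0.0106), and Pla2g12a, a secreted phospholipase, had 624 and 636 in Mertk-KO and 398, 438 and 388 in LXR-DKO (log2 fold change 0.63 ± 0.09 SE at an adjusted p of 0.00692). These 4 kept the call without any single library but lost it with only the 5 libraries in the fit. In the TPM table Alpk1 had a log2 fold change of -0.58 (adjusted p = 0.218) and Pla2g12a of 0.56 (adjusted p = 0.0765), and neither was called. Other genes named above lay on these chromosomes too. Igsf23 and Hif3a were on chromosome 7 from 10 to 20 Mb, and Gabrg3 was 12.5 Mb from Nr1h2. On chromosome 3, Tmem56 was from 120 to 130 Mb, Slc6a17 and Wnt2b from 100 to 110 Mb, and Manba and Lamtor3 from 130 to 140 Mb. Unc5a, Ndrg4, Apod and Gcnt1 were on other chromosomes. The stretches and their genes were chosen after the values were seen, and the strain background of the lines, which is not stated, cannot be told apart from genotype here.

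Among the 55 were also genes outside these lists. Nfat5, the transcription factor of osmotic stress, had 591 and 624 normalised counts in Mertk-KO, against 1044, 1063 and 1153 in LXR-DKO and 1112, 1133 and 1104 in WT (log2 fold change -0.84 ± 0.08 SE at an adjusted p of 0.000319). Here Mertk-KO was the group that left the WT level. Fndc5, the precursor of the hormone irisin, had 6122 and 4946 in Mertk-KO, against 3569, 3528 and 3413 in LXR-DKO and 4596, 4453 and 4861 in WT (log2 fold change 0.65 ± 0.09 SE at an adjusted p of 0.00524). Slc2a12, the glucose transporter GLUT12, had 108 and 81.6 normalised counts in Mertk-KO, against 191, 203 and 219.8 in LXR-DKO and 112, 115 and 113 in WT (log2 fold change -1.11 ± 0.14 SE at an adjusted p of 0.00273), with LXR-DKO the group apart. Sned1, an extracellular matrix protein gene, had 225 and 249.5 in Mertk-KO, against 508, 425 and 504 in LXR-DKO and 546, 399 and 479.7 in WT (log2 fold change -1.01 ± 0.14 SE at an adjusted p of 0.00539). Mgme1, a nuclease that maintains mitochondrial DNA, had 112 and 95.9 in Mertk-KO, against 224, 240.1 and 280.00 in LXR-DKO and 219, 205 and 201 in WT (log2 fold change -1.25 ± 0.17 SE at an adjusted p of 0.00408). These 5 were chosen after their values were seen, and all lost the call with only the 5 libraries in the fit. In the TPM table Nfat5 (-0.46, adjusted p = 0.253), Slc2a12 (-0.95, adjusted p = 0.0637) and Sned1 (-0.62, adjusted p = 0.228) were not called.

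Genes were ordered by transcript length and cut into 5 equal classes. In the class with the longest transcripts (2841 bases and over) the median log2 fold change was -0.11, and by library the median difference from the LXR-DKO mean was -0.05 and -0.14 in Mertk-KO 1 and 2 and 0.02, -0.06 and 0.05 in LXR-DKO 1, 2 and 3, so that the groups overlapped. In that class 88 genes were called, 78 of them lower. In the shortest class (up to 761 bases) the median was 0.04 and 47 were called, 27 of them lower. The share called was 3.17% in the longest class and 1.69% in the shortest. After trends of the values with length and GC content were taken out of every library, 457 genes were called, 135 higher and 322 lower, of which 270 were among the 341.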

How the data were processed

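Heart RNA of 4 groups was sequenced as 11 libraries, grouped by their labels. Trizol extraction and amplification with a kit for single cells preceded Illumina sequencing, per the labels' protocols. RSEM 1.2.20, kallisto 0.43.1, cutadapt, CASAVA 1.8.2 and GRCm38 appear in the submitters' processing notes, with no roles. The first table deposited by the authors holds a signal: estimated reads scaled by each effective library total after 0.5 read was added. From the values, 57.2% to 61.5% of low values came to whole reads within 0.01 read, so no count model was used. The second table deposited by the authors holds a signal named normalised TPM, used as an alternative.

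Reads were rescaled to the mean effective size as normalised counts. Genes with a mean of at least 10 over the 11 libraries (13884 of 35584) were tested with limma 3.58.1 in R 4.3.3 (lmFit and eBayes with a trend, two-sided, Benjamini-Hochberg threshold 0.05) on log2(normalised count + 1). All 4 groups were in 1 model with 7 residual degrees of freedom. The floor for a group at 0 was 3 reads over that group. The script was tested on simulated data.

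Named genes were the targeted genes, the 12 leading called genes in each direction without predicted models, up to 4 members of each list with the smallest p, and the 4 genes with the smallest p within 5 Mb of each targeted locus. Not all of those that missed the threshold are described, and genes chosen after their values were seen are marked. The members and lists were chosen with earlier results of these data known. Of the identifiers, 35469 of 35584 matched GENCODE vM21. Promoters are from RefSeq (GRCm38.p6). Alternatives covered the pseudocount, filter, scaling, samples, variance model, length and GC content, replicate block, TPM table and each library left out, and voom weights, which were added after seeing the data. No library was left out of the reported results. A few genes that the rule names are not reported here.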

Additional observations from a re-analysis of the deposited data

How the results depend on the processing

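The number of genes called (341) was 20 with only the 5 libraries compared, 19 with weights per library, 88 with no trend in the variance prior, 66 in the TPM table, 151 with the length and GC trend removed together with a replicate block, and 162 with voom weights. It ran from 72 to 2168 with 1 library left out. With the replicate block alone it was 119. Correlations of deviations from the group means were -0.0059 and 0.107 for same-numbered libraries. They cannot decide whether the replicate numbers pair the libraries, since the deviations of 2 Mertk-KO libraries mirror each other. The labels state no pairing. The 4 calls among interferon-stimulated genes were 2 with no filter on low values, 0 with only the 5 libraries, with weights per library, with no trend and with voom, 1 in the TPM table and 2 with length and GC removed, and ran from 0 to 29 with 1 library left out. The 9 calls within 5 Mb of Nr1h2 were 4 with only the 5 libraries, 2 with weights per library and 5 in the TPM table, and ran from 6 to 32 with 1 library left out. Nr1h3 had a log2 fold change of 0.30 in the TPM table. Among uncalled genes the sign turned for the Axl log2 fold change (-0.0326 in the TPM table, -0.0016 with length and GC removed, -0.0354 with the block added, -0.0064 to 0.23 with 1 library left out), and for those of Arntl (-0.0046 with the replicate block, -0.89 to 0.93 with 1 library left out), Gas6 (-0.0253 to 0.18), Iigp1 (-1.16 to 4.36), Myh6 (-0.34 to 0.11) and Per1 (-1.75 to 0.93), the last 4 with 1 library left out. Where these values moved, the cause was not tested. Intervals and floors cover counting error only, and genes at a few reads are limited by depth.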

Other observations

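E330017L17Rik, a predicted transcript, had 22.6 and 52.8 normalised counts in Mertk-KO and 0 reads in all 3 LXR-DKO libraries, at least 38.4-fold higher in Mertk-KO when 3 reads are allowed over LXR-DKO. It kept its call in each of the 11 fits without 1 library, lost it with only the 5 libraries in the fit, and was chosen after its values were seen.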
